A study of Saccharomyces cerevisiae with 10 samples.

Results

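The hexose transporter genes of budding yeast were followed in 5 strains of Saccharomyces cerevisiae. The 10 genes were HXT1, HXT2, HXT3, HXT4, HXT5, HXT6, HXT7, HXT8, HXT10 and GAL2, and all 10 had a row among the 5824 features of the expression table. They were chosen by name from the family, at a time when some of their values against the wild type were already known, so their differences from the wild type are a description, from which nothing is inferred. The 4 overexpression strains are named after the gene they carried and are taken throughout in the order LSM5-OE, TIF35-OE, then UTP6-OE, then PRP22-OE. Each gene came as an additional copy under its native promoter and terminator, on a centromeric plasmid of low copy number with a URA3 marker. LSM5 encodes a subunit of the Lsm rings that act in mRNA decay and splicing, TIF35 a subunit of the translation factor eIF3, UTP6 a part of the processome that matures 18S rRNA, and PRP22 a helicase that releases mRNA from the spliceosome. All 5 strains were built in BY4741, a haploid laboratory strain, and the wild type (WT) control of the study carried the empty vector. RNA was taken from 2 independent cultures of each strain, grown without uracil in 2% glucose to an OD600 of 0.4, with no treatment. The strains were grown from glycerol stocks of single transformant colonies, and whether the 2 cultures of a strain went back to the same colony is not stated. The p-values below then measure the spread between these cultures only.

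Yeast takes up glucose by facilitated diffusion through a family of related permeases. Hxt1 and Hxt3 have a low affinity and serve cells with much sugar outside, Hxt2, Hxt4, Hxt6 and Hxt7 have a high or moderately high affinity and serve cells with little, and Gal2 carries both galactose and glucose. The genes are read according to the sugar supply along a pair of routes. In the first, the membrane sensors Snf3 and Rgt2 bring about the loss of Mth1 and Std1, which frees HXT promoters from the repressor Rgt1. In the second, glucose keeps the kinase Snf1 inactive, and the repressor Mig1 then shuts the genes of high affinity carriers. HXT5 encodes a carrier of intermediate affinity that is known from slowly growing and starved cells, and HXT8 and HXT10 are known as poorly expressed members of the family.

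Values are FPKM, fragment numbers scaled to gene length and to library size, so that levels can be compared between genes. The spacing of low FPKM values gave estimates of 13448736 to 17258160 fragments per library. It also gave a fragment length of 306 to 312 bases in 7 libraries and of 281 bases in TIF35-OE culture 1, UTP6-OE culture 1 and PRP22-OE culture 2. These 3 libraries stood apart in short genes. For example, RPS30A was listed at 0 in the other 7 and at 17284 to 20057 FPKM in these 3. The hexose transporter genes are far longer than the fragments, and the differences from WT are given with these 3 libraries and in the other 7 alone. In each overexpression strain the gene on the plasmid was 2.147 to 3.997 times as high as in WT, and its 2 values exceeded those in all 8 other libraries. The upper ratio, that of LSM5, is uncertain. LSM5 stood at 865 and 1456 FPKM in its own cultures and ranged from 268 to 676 FPKM in the other 8 libraries. STE2, the pheromone receptor of a cells, lay between 420 and 611 FPKM, against 12.9 to 17.3 FPKM for STE3, the receptor of alpha cells, and BY4741 is of mating type a. HIS3, which is partly deleted in BY4741, still had 148 to 247 FPKM.

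Of the 10 genes, 6 lie in a pair of groups on the S288c reference (assembly R64, RefSeq annotation). On chromosome IV, HXT7 (YDR342C) occupies 1154216 to 1155928, HXT6 (YDR343C) 1159608 to 1161320 and HXT3 (YDR345C) 1162957 to 1164660, all on the minus strand. On chromosome VIII, HXT4 (YHR092C) occupies 287081 to 288811, HXT1 (YHR094C) 290913 to 292625 and HXT5 (YHR096C) 294669 to 296447, again on the minus strand. The others stand alone on the plus strand, with HXT2 (YMR011W) on chromosome XIII from 288079 to 289704, HXT8 (YJL214W) on X from 26887 to 28596, HXT10 (YFL011W) on VI from 112345 to 113985 and GAL2 (YLR081W) on XII from 290212 to 291936.

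HXT6 and HXT7 are near copies of each other, and the sequence is shown because it limits how far their reads can be assigned. Their coding regions were identical at 99.82% of 1713 bases, with 3 mismatches that all fell near the end of the gene. Counted from the start codon and written from HXT6 to HXT7, these were T1632C, G1666A and T1677C, and 1 of 571 residues differed between the proteins. The coding bases 1618 to 1677 are given 5′ to 3′ from RefSeq R64, HXT6 at chrIV:1159644-1159703 and HXT7 at chrIV:1154252-1154311, both on the minus strand, with the mismatched bases in capitals.
HXT6: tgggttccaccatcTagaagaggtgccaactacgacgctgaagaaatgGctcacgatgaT
HXT7: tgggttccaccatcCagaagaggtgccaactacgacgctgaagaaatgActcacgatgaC
Fragments from the 1631 bases before the first mismatch cannot tell the pair apart, so the split between HXT6 and HXT7 is uncertain, and values are also given for their sum. Every other pair of the 10 genes was far less alike. HXT1 and HXT3 shared 83.03% of their aligned coding bases, and the longest identical run outside the HXT6 and HXT7 pair was 149 bases, between HXT3 and either of these.

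The upstream regions were read for the recognition letters of the repressors named above and of a pair of stress factors, to show how these differ between the 10 genes. The 900 bases that end 100 bases before the start codon were searched on both strands. The letters CGGANNA stood for Rgt1 and AGGGG for the stress factors Msn2 and Msn4 (the STRE element). Mig1 was given by CCGGGG or by variants of it in the leading letters, which were CTGGGG and also GCGGGG as well as GTGGGG. No match for Mig1 overlapped one for STRE. Of 6015 such windows in the genome, 64.02% held the Rgt1 letters, 40.23% the Mig1 letters and 51.62% the STRE letters. HXT1 held 8 matches for Rgt1 and HXT3 held 9, numbers reached by 0.03% and 0.02% of all windows. HXT8 held 6, as many as 0.35% of windows, and the other members 0 to 4. HXT2 and HXT4 each held 4 matches for Mig1, which 0.75% of windows reached, HXT6 held 3, HXT7 and HXT3 held 2 each, HXT5, HXT8 and HXT10 held 1 each, and HXT1 and GAL2 held none. The STRE letters were found 5 times before HXT6, 4 times before HXT7, 3 times before GAL2 and 2 times before HXT5, and at most 1 time before each other member. For 6 of the genes that the results turn on, the 120 bases with the most matches are given, from RefSeq R64. They run 5′ to 3′ in the direction of the gene, with matches on either strand in capitals. The part of the window nearest the gene was left out of this choice, so matches there could not be shown. Among them were the matches for Mig1 before HXT3, at 185 and 172 bases from the start codon. HXT1 is read from chrVIII:292990-293109, HXT3 from chrIV:1164973-1165092, HXT2 from chrXIII:287575-287694, HXT4 from chrVIII:289211-289330, HXT7 from chrIV:1156470-1156589 and HXT5 from chrVIII:296877-296996.
HXT1: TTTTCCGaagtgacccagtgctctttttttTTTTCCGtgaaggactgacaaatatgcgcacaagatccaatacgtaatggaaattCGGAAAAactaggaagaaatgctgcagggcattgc
HXT3: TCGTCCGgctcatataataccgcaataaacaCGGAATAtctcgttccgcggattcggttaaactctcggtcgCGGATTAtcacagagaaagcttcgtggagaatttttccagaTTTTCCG
HXT2: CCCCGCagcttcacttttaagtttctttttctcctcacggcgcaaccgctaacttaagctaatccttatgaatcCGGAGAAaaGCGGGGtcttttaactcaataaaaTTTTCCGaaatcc
HXT4: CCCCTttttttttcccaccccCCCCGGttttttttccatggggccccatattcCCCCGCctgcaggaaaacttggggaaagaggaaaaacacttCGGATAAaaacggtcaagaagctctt
HXT7: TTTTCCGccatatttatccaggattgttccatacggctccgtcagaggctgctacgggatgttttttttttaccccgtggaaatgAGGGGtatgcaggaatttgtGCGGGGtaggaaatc
HXT5: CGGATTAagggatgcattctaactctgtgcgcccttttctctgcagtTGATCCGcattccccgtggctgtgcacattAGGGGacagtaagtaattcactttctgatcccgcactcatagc
In these stretches all 3 matches of HXT1 and all 4 of HXT3 were for Rgt1, whereas HXT2 and HXT4 each held 2 for Mig1, beside 2 for Rgt1 in HXT2 and 1 in HXT4. The stretch of HXT4 lies inside AHT1 (YHR093W), which is annotated on the other strand. Although the coding regions of HXT6 and HXT7 are nearly the same, their upstream regions matched at 65.56% of aligned bases, with 84 identical bases next to the start codon. A match of letters is a description and does not show that a factor was bound.

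**Figure D1:**
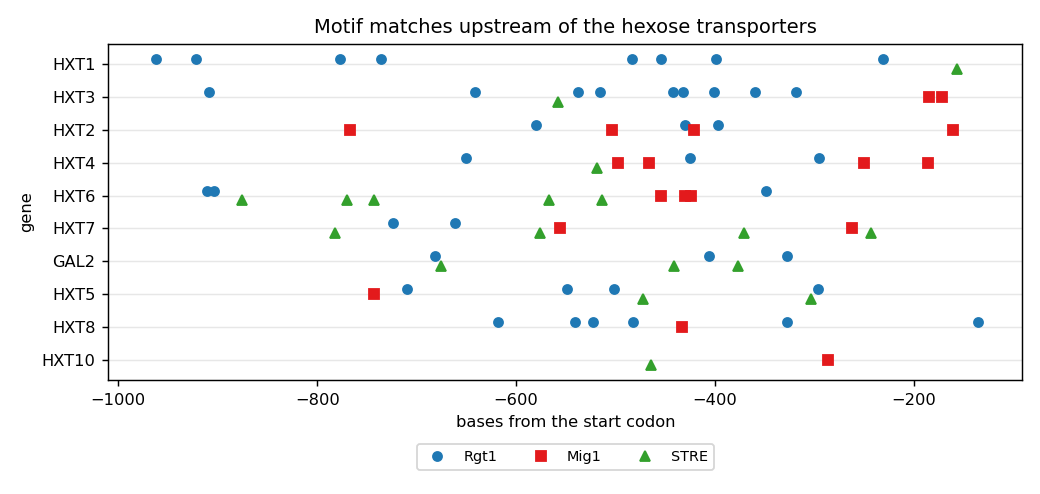
Positions of the matches for Rgt1 (circles), Mig1 (squares) and STRE (triangles) in the 900 bases searched upstream of the 10 genes, with the distance from the start codon in bases on the horizontal axis. HXT1 and HXT3 carry 8 and 9 matches for Rgt1, and HXT2 and HXT4 carry 4 each for Mig1.

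The differences from WT ran in several directions. HXT4, HXT6 and HXT7 were 2.16 to 3.77 times as high in all 4 overexpression strains as in WT. HXT5 and HXT10 were lower than in WT in each of these strains, as was GAL2. HXT1, HXT3 and HXT2 lay between -0.78 and 0.38 from WT on the log2 scale, and their direction depended on the strain, as did that of HXT8, between -0.48 and 0.14. In cultures such as these, a change in the number of cells that express a gene cannot be told apart from a change in the RNA per cell.

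For the comparison limma was fitted to log2(FPKM + 0.5) of the 5768 features whose mean reached 1 FPKM, which all 10 genes did, and a gene is called where its adjusted p was at most 0.05. A log2 fold change is a difference of such log2 values, which understates the change of genes with few FPKM. In LSM5-OE, 3 of the 10 genes were called higher than WT and 0 lower, against 4.7% and 2.95% of all features. At an unadjusted p of at most 0.05, 5 would have been higher and 0 lower. The share of all features at that unadjusted p is not given here, so this count has no background beside it. In TIF35-OE, 4 were called higher and 2 lower, against 9.62% and 20.7% of all features. In UTP6-OE the counts were 3 and 4, against 9.95% and 19.1%, and in PRP22-OE they were 4 and 2, against 7.09% and 12.2%. Since the genes were chosen with these differences known, nothing is read from these counts. Across the 10 genes the median log2 fold change from WT was 0.22, -0.15, -0.13 and 0.17 in the 4 strains in turn, beside -0.01, -0.10, -0.07 and -0.05 over all features. When FPKM were rescaled so that the median feature did not differ, the share of all called features that were higher moved. It went from 31.8% to 57.1% in TIF35-OE, from 34.2% to 54.4% in UTP6-OE and from 36.7% to 54.1% in PRP22-OE. In LSM5-OE, 5 of the 10 genes were then called, all higher, beside 578 of the 5768 features, of which 61.9% were higher.

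**Figure D2:**
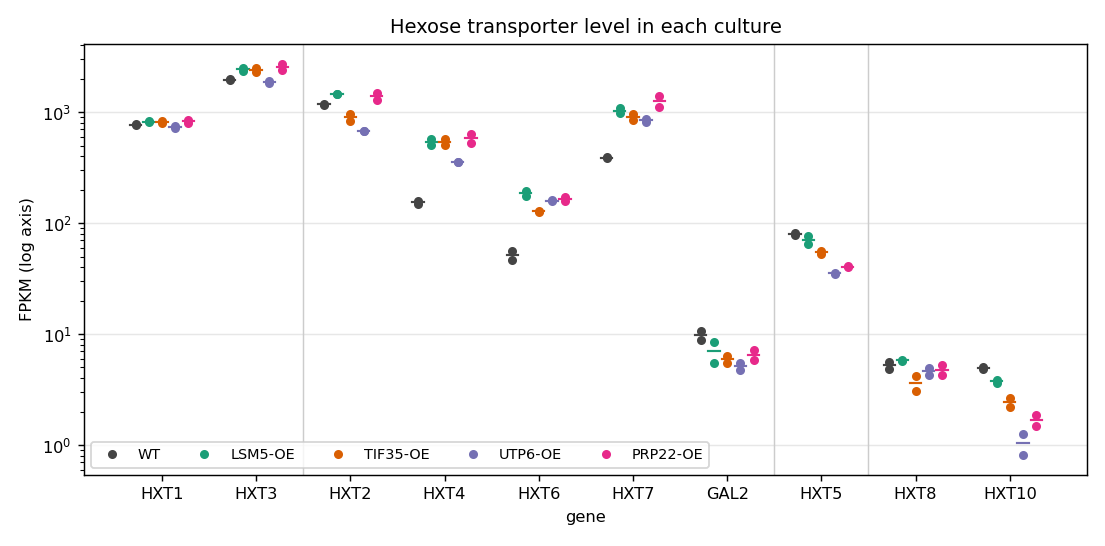
Level of the 10 genes in each culture, in FPKM on a log axis, with points for the 2 cultures of a strain and a short line for their mean. Grey lines separate low affinity genes (HXT1, HXT3), high affinity genes, HXT5, and HXT8 with HXT10, and the WT cultures of HXT4, HXT6 and HXT7 lie below all other points of the same gene.

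Of the low affinity carriers, HXT3 had the highest level of all 10 genes in every library. HXT3 stood at 1968 and 1951 FPKM in WT, 2509 and 2353 FPKM in LSM5-OE, 2287 and 2519.5 FPKM in TIF35-OE, 1833 and 1922 FPKM in UTP6-OE, and 2738 and 2389 FPKM in PRP22-OE. Both UTP6-OE cultures lay just below WT and the cultures of the other 3 strains above it, with these 3 overlapping each other. The log2 fold change from WT was 0.31 ± 0.08 (SE of the limma fit to all 10 libraries) in LSM5-OE, 0.38 in PRP22-OE and 0.29 in TIF35-OE, with the same SE, and -0.06 in UTP6-OE, which became 0.01 after rescaling. In the 7 libraries with longer fragments, taken in the order of the strains, these differences were 0.31, 0.36, -0.03 and 0.48.

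HXT1, the other low affinity carrier, varied least among the strains. Its level was 763 and 777 FPKM in WT, 828 and 807 FPKM in LSM5-OE, 795 and 835 FPKM in TIF35-OE, 713 and 745 FPKM in UTP6-OE, and 858 and 804 FPKM in PRP22-OE. As with HXT3, the UTP6-OE cultures were the lowest and the other 3 overexpression strains overlapped above WT. The log2 fold changes from WT ran from -0.08 to 0.11 with an SE of 0.06, and from -0.05 to 0.155 in the 7 libraries with longer fragments. Rescaling left the one in UTP6-OE at -0.01. The ratio of HXT3 to HXT1 within a library, which no scaling between libraries alters, was 2.51 to 2.58 in WT and UTP6-OE and 2.88 to 3.19 in the other strains.

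HXT4, whose product serves cells in moderate to low glucose, was lowest in WT. The WT cultures gave 157 and 149.9 FPKM, those of LSM5-OE 574 and 506 FPKM, of TIF35-OE 509 and 572 FPKM, of UTP6-OE 358 and 357 FPKM, and of PRP22-OE 636 and 522.5 FPKM. UTP6-OE lay between WT and the other strains, and the cultures of LSM5-OE, TIF35-OE and PRP22-OE overlapped. The means were 3.52 times WT in LSM5-OE and TIF35-OE, 2.33 times in UTP6-OE and 3.77 times in PRP22-OE. On the log2 scale these were 1.81, 1.81, 1.22 and 1.91, with an SE of 0.10. In the 7 libraries with longer fragments the values were 1.81, 1.90, 1.22 and 2.05.

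HXT7, a major carrier of cells in low glucose, stood at 384 and 395 FPKM in WT, 1084 and 976 FPKM in LSM5-OE, 850.0 and 961 FPKM in TIF35-OE, 808 and 873 FPKM in UTP6-OE, and 1392 and 1117 FPKM in PRP22-OE. Cultures of TIF35-OE and UTP6-OE overlapped, those of LSM5-OE lay above them and those of PRP22-OE were the highest. Relative to WT, HXT7 differed by 1.40, 1.21, 1.11 and 1.68 on the log2 scale in the 4 strains in turn, with an SE of 0.11, or 2.65, 2.33, 2.16 and 3.22 times the WT mean. The values in the 7 libraries with longer fragments were 1.40, 1.30, 1.16 and 1.84.

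HXT6, its near copy, was lower than HXT7 throughout. It gave 55.8 and 46.3 FPKM in WT, 196 and 177 FPKM in LSM5-OE, 125 and 129.8 FPKM in TIF35-OE, 157 and 160.4 FPKM in UTP6-OE, and 157 and 171 FPKM in PRP22-OE. Here LSM5-OE was the highest and TIF35-OE the lowest of the overexpression strains, while UTP6-OE and PRP22-OE overlapped. From WT, HXT6 differed by 1.86, 1.32, 1.63 and 1.68 on the log2 scale in the 4 strains in turn, with an SE of 0.09, and by 1.86, 1.34, 1.65 and 1.62 in the 7 libraries with longer fragments. Summed over the pair, WT had 439.8 and 441 FPKM, LSM5-OE 1280.2 and 1153 FPKM, TIF35-OE 974.8 and 1091 FPKM, UTP6-OE 965 and 1034 FPKM, and PRP22-OE 1549 and 1289 FPKM. Fitted as 1 feature, the sum differed from WT by 1.46, 1.23, 1.18 and 1.68 on the log2 scale, with an SE of 0.10. HXT6 made up 10.1% to 16.2% of the pair, and both of these limits came from overexpression strains.

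HXT2, a high affinity carrier whose gene is induced by low amounts of glucose, did not follow HXT4, HXT6 and HXT7. The cultures gave 1152 and 1192 FPKM in WT, 1448 and 1441 FPKM in LSM5-OE, 836 and 964 FPKM in TIF35-OE, 681 and 683 FPKM in UTP6-OE, and 1483 and 1288 FPKM in PRP22-OE. UTP6-OE was the lowest and TIF35-OE the next, both under WT, whereas LSM5-OE and PRP22-OE overlapped above WT. The log2 fold changes from WT were 0.30, -0.39, -0.78 and 0.24 in turn, with an SE of 0.09. In the 7 libraries with longer fragments they were 0.30, -0.28, -0.78 and 0.34. Within a library, HXT2 was 1.51 to 1.53 times as high as HXT1 in WT, 1.60 to 1.79 times in LSM5-OE and PRP22-OE, 1.05 to 1.15 times in TIF35-OE and 0.92 to 0.95 times in UTP6-OE.

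GAL2, the galactose permease, is repressed in glucose and was near the floor of the family. It gave 8.91 and 10.6 FPKM in WT, 5.52 and 8.44 FPKM in LSM5-OE, 5.45 and 6.39 FPKM in TIF35-OE, 5.48 and 4.76 FPKM in UTP6-OE, and 7.13 and 5.89 FPKM in PRP22-OE. All 8 values from overexpression strains lay below WT. Those of UTP6-OE were under those of LSM5-OE and PRP22-OE, and the other pairs of these strains overlapped. In turn, the log2 fold changes from WT were -0.48, -0.67, -0.86 and -0.55, with an SE of 0.22. They were -0.48, -0.57, -0.96 and -0.42 in the 7 libraries with longer fragments. An estimated 105 to 211 fragments per library stood behind these values.

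HXT5 was lower in every overexpression strain, and the cultures of no 2 strains overlapped. The values were 81.1 and 77.9 FPKM in WT, 76.5 and 65.3 FPKM in LSM5-OE, 52.2 and 56.6 FPKM in TIF35-OE, 34.8 and 35.65 FPKM in UTP6-OE, and 39.8 and 40.65 FPKM in PRP22-OE. The order ran from WT through LSM5-OE, TIF35-OE and PRP22-OE down to UTP6-OE. Against WT the log2 fold changes were -0.17, -0.54, -1.16 and -0.97 in turn, with an SE of 0.08, and -0.17, -0.49, -1.145 and -0.99 in the 7 libraries with longer fragments.

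HXT10 showed the same order as HXT5 at a level of a few FPKM. It gave 4.88 and 5.01 FPKM in WT, 3.86 and 3.62 FPKM in LSM5-OE, 2.22 and 2.64 FPKM in TIF35-OE, 1.26 and 0.81 FPKM in UTP6-OE, and 1.87 and 1.5 FPKM in PRP22-OE. Again no 2 strains overlapped. An estimated 17 to 101 fragments stood behind each value, and exact Poisson intervals (95%, for counting error only) ran from 0.830 to 1.833 and from 0.472 to 1.297 FPKM in UTP6-OE, against 3.975 to 5.930 and 4.049 to 6.131 FPKM in WT. Differences from WT on the log2 scale were -0.36, -0.90, -1.84 and -1.32 in turn, with an SE of 0.31. The 7 libraries with longer fragments gave -0.36, -0.79, -2.06 and -1.20.

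HXT8 was another gene of low level. It gave 5.61 and 4.86 FPKM in WT, 5.69 and 5.89 FPKM in LSM5-OE, 3.10 and 4.15 FPKM in TIF35-OE, 4.25 and 4.95 FPKM in UTP6-OE, and 4.29 and 5.28 FPKM in PRP22-OE. The TIF35-OE cultures were the lowest, those of UTP6-OE and PRP22-OE overlapped WT, and those of LSM5-OE were just above it. The log2 fold changes from WT lay between -0.48 and 0.14 with an SE of 0.21, and between -0.30 and 0.14 in the 7 libraries with longer fragments.

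**Figure D3:**
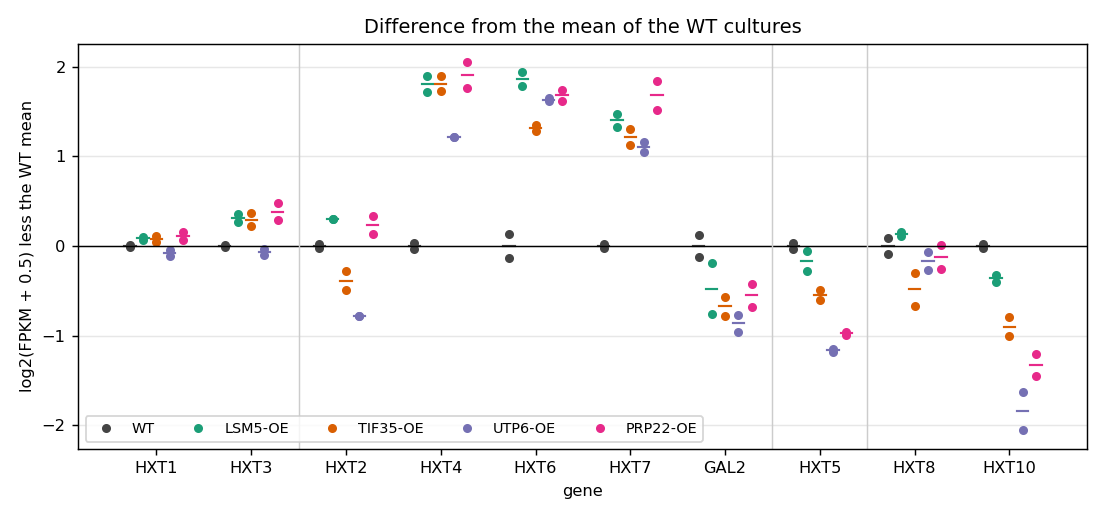
Difference of each culture from the mean of the WT cultures, as log2(FPKM + 0.5), with points for cultures and short lines for strain means. HXT4, HXT6 and HXT7 lie above 1 in all 4 overexpression strains, HXT5 and HXT10 lie below 0 in all 4, and HXT2 lies on either side of 0.

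The balance between affinity types was compared as a share of the summed FPKM of the 10 genes, which does not depend on scaling between libraries. Low affinity genes (HXT1 and HXT3) made up 59.4% ± 0.31 (SD, n = 2 cultures) of the sum in WT and high affinity genes (HXT2, HXT4, HXT6, HXT7 and GAL2) 38.6% ± 0.38. In LSM5-OE the shares were 49.7% ± 0.17 and 49.1% ± 0.10, and in PRP22-OE 49.7% ± 0.83 and 49.6% ± 0.91. In TIF35-OE they were 55.9% ± 0.68 and 43.0% ± 0.68, and in UTP6-OE 55.6% ± 0.22 and 43.6% ± 0.21. The high affinity share was thus 10.4 to 10.9 percentage points above WT in LSM5-OE and PRP22-OE and 4.39 to 4.93 points above it in TIF35-OE and UTP6-OE. As for the single genes, these gaps from WT are a description. In the single cultures left to 3 strains when the shorter-fragment libraries were set aside, the high affinity share was 43.5% in TIF35-OE, 43.4% in UTP6-OE and 50.2% in PRP22-OE.

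The sums behind these shares were as follows. Low affinity genes summed to 2730 FPKM ± 2.77 in WT, 3249 ± 125 in LSM5-OE, 3218 ± 193 in TIF35-OE, 2606 ± 84.5 in UTP6-OE and 3395 ± 285 in PRP22-OE. High affinity genes summed to 1776 FPKM ± 24.9, 3208 ± 141, 2479 ± 218, 2044 ± 48.4 and 3390.0 ± 403 in the same order. In UTP6-OE the low affinity sum was thus under that of WT and the high affinity sum above it, with more HXT4, HXT6 and HXT7 beside less HXT2. Sums depend on the scaling between libraries, and after rescaling the low affinity sum in UTP6-OE, 2646 ± 54.5, was no longer under that in WT, 2640.0 ± 23.8, while the high affinity sums were 2075 ± 24.5 and 1717 ± 10.4. The share of HXT5 was 1.73% in WT and 1.08%, 0.945%, 0.751% and 0.593% in the 4 strains in turn. The 10 genes held 0.231% to 0.232% of all FPKM in WT, 0.323% to 0.331% in LSM5-OE, 0.288% to 0.309% in TIF35-OE, 0.238% to 0.239% in UTP6-OE and 0.338% to 0.361% in PRP22-OE. When HXT6 and HXT7 were left out of the sums, the high affinity share was 32.1% in WT, above that in TIF35-OE (30.6%) and UTP6-OE (28.3%) and still below that in LSM5-OE (37.4%) and PRP22-OE (36.4%).

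**Figure D4:**
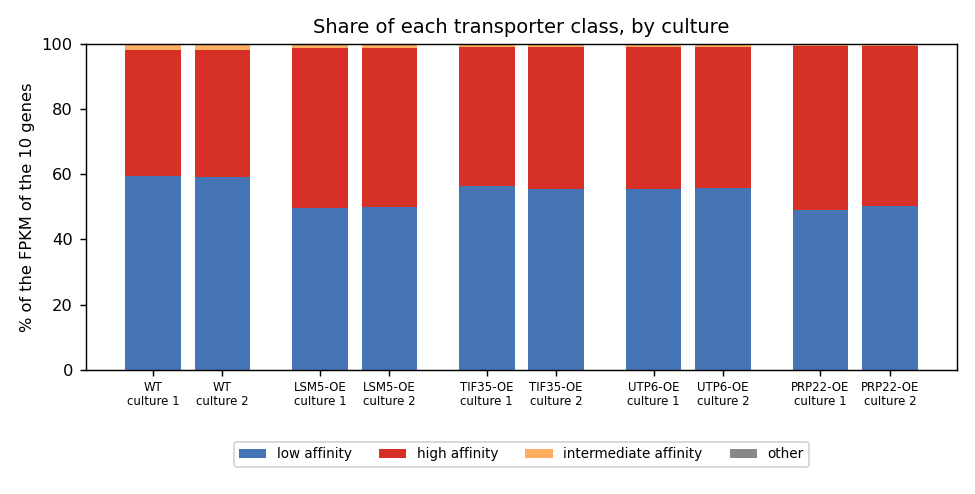
Share of low affinity, high affinity, intermediate affinity (HXT5) and other (HXT8 and HXT10) genes in the summed FPKM of the 10 genes, in percent, with 1 bar per culture. The high affinity share is 38.6% on average in WT and 49.1% and 49.6% in LSM5-OE and PRP22-OE.

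Whether the overexpression strains differed among themselves was tested in 6 contrasts of the same fit, with p-values adjusted over all 5768 features in each. The WT means do not enter these contrasts, although the WT cultures enter the shared spread. A difference between 2 strains nevertheless follows from their differences from WT, some of which were known when the genes were chosen. The p-values below are therefore not free of that choice. Calls were made for 4 of the 10 genes in UTP6-OE against TIF35-OE, 4 in PRP22-OE against TIF35-OE, 4 in PRP22-OE against UTP6-OE, 3 in TIF35-OE against LSM5-OE, 5 in UTP6-OE against LSM5-OE and 1 in PRP22-OE against LSM5-OE. The share of all features called in the same contrasts was 6.61%, 11.3%, 10.1%, 11.4%, 22.8% and 4.82%. Over the 10 genes, median log2 fold changes were -0.27, 0.11, 0.38, -0.29, -0.38 and -0.07 in that order. The contrasts share strains with each other and are not independent. With 2 cultures per strain no permutation of cultures can reach the threshold, and the p-values rest on a spread shared by all strains through 5 residual degrees of freedom. In limma this spread is also drawn toward that of other features of similar level, on which the p-values depend too. Each call below is followed by the number of the 19 alternative settings that kept it. In the 7 libraries with longer fragments the calls that held were those of HXT2, HXT5 and HXT10 in UTP6-OE against LSM5-OE, and no member was called in the other 5 contrasts.

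HXT2 and HXT5 were each called in 5 of the 6 contrasts. HXT2 was lower in UTP6-OE than in LSM5-OE by a log2 fold change of -1.08 ± 0.09 (SE, limma, adjusted p = 0.00021), and this was called in all 19 alternatives, with adjusted p from 0.000173 to 0.0127. It was higher in PRP22-OE than in UTP6-OE by 1.02 (adjusted p = 0.000647), which was lost only in the 7 libraries with longer fragments (adjusted p = 0.0554). It was also higher in PRP22-OE than in TIF35-OE by 0.62 (adjusted p = 0.00543) and lower in TIF35-OE than in LSM5-OE by -0.69 (adjusted p = 0.00436). These were kept in 17 alternatives each and lost when only the libraries of the 2 strains were fitted and in the 7 libraries with longer fragments. The difference between UTP6-OE and TIF35-OE, -0.40 (adjusted p = 0.0367), was kept in only 8 alternatives. Leaving out any 1 library other than TIF35-OE culture 1 or a PRP22-OE culture ended it, with adjusted p from 0.0512 without LSM5-OE culture 1 to 0.182 without TIF35-OE culture 2. PRP22-OE and LSM5-OE differed by -0.06 (adjusted p = 0.744).

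HXT5 was lower in UTP6-OE than in LSM5-OE by a log2 fold change of -0.995 ± 0.08 (SE, adjusted p = 0.000211), and called in all 19 alternatives. PRP22-OE was lower than LSM5-OE by -0.80 (adjusted p = 0.00144, kept in 17 alternatives) and UTP6-OE lower than TIF35-OE by -0.62 (adjusted p = 0.0044, kept in 18). The differences of PRP22-OE from TIF35-OE, -0.43 (adjusted p = 0.0162, kept in 13), and of TIF35-OE from LSM5-OE, -0.38 (adjusted p = 0.0267, kept in 12), were less stable. The former was lost without either TIF35-OE culture (adjusted p = 0.0527 and 0.096) or either PRP22-OE culture (0.0789 and 0.076), and the latter without WT culture 2 (0.0502), LSM5-OE culture 1 (0.0522) or either TIF35-OE culture (0.15 and 0.0639) and after rescaling (0.069).

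HXT4 was lower in UTP6-OE than in each of the other overexpression strains. The log2 fold change was -0.59 ± 0.10 (SE) against LSM5-OE (adjusted p = 0.0071, kept in 18 of 19 alternatives) and -0.59 against TIF35-OE (adjusted p = 0.017, kept in 14), and PRP22-OE was higher than UTP6-OE by 0.69 (adjusted p = 0.00785, kept in 16). The contrast with TIF35-OE was lost without TIF35-OE culture 2 (adjusted p = 0.107) and without UTP6-OE culture 1 (0.0824) or 2 (0.104), and that with PRP22-OE without UTP6-OE culture 2 (0.0568). Among LSM5-OE, TIF35-OE and PRP22-OE the differences of HXT4 were 0.00 to 0.10 and were not called.

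HXT3 was, like HXT4, the lowest in UTP6-OE among the overexpression strains. It was lower in UTP6-OE than in LSM5-OE by -0.37 ± 0.08 (SE, adjusted p = 0.0174) and lower than in TIF35-OE by -0.36 (adjusted p = 0.0461), and higher in PRP22-OE than in UTP6-OE by 0.45 (adjusted p = 0.0164). The first and the last were kept in 14 of 19 alternatives. Both were lost without UTP6-OE culture 1 (adjusted p = 0.0908 and 0.0874) or 2 (0.0609 and 0.0681), the first without LSM5-OE culture 1 (0.0725) and the last without PRP22-OE culture 1 (0.0796). The contrast with TIF35-OE was kept in 7, and adjusted p was 0.0528 to 0.223 without any 1 of the WT, LSM5-OE, TIF35-OE or UTP6-OE cultures. HXT1 pointed the same way, with -0.17 for UTP6-OE against LSM5-OE, -0.16 against TIF35-OE (adjusted p = 0.138) and 0.19 for PRP22-OE against UTP6-OE (adjusted p = 0.076), and was not called in any contrast.

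For HXT7, PRP22-OE was higher than UTP6-OE by 0.57 ± 0.11 (SE, adjusted p = 0.0203, kept in 14 of 19 alternatives) and higher than TIF35-OE by 0.46 (adjusted p = 0.0401, kept in 8). The former was lost without UTP6-OE culture 1 (adjusted p = 0.106) or 2 (0.0756) or PRP22-OE culture 1 (0.083), and the latter without any 1 WT, TIF35-OE or UTP6-OE culture or PRP22-OE culture 1 (0.0613 to 0.188). For HXT6, TIF35-OE was lower than LSM5-OE by -0.55 ± 0.09 (adjusted p = 0.014, kept in 15) and PRP22-OE higher than TIF35-OE by 0.37 (adjusted p = 0.0467, kept in 8). The former was lost without either TIF35-OE culture (0.0877 and 0.0562), and the latter without any 1 TIF35-OE, UTP6-OE or PRP22-OE culture (0.0734 to 0.201) and after rescaling (0.0821). Fitted as 1 feature, a setting chosen after seeing the data, the sum of HXT6 and HXT7 was higher in PRP22-OE than in UTP6-OE by 0.50 ± 0.10 (adjusted p = 0.0219) and than in TIF35-OE by 0.45 (adjusted p = 0.0314), whereas TIF35-OE against LSM5-OE gave -0.24 (adjusted p = 0.163), so that the call for HXT6 in this contrast rests on the split of the pair. HXT10 was lower in UTP6-OE than in LSM5-OE by -1.48 ± 0.31 (adjusted p = 0.0139, kept in 16 of 18), a call that ended without LSM5-OE culture 1 (0.0547) or UTP6-OE culture 2 (0.0504). GAL2 and HXT8 were called in no contrast between overexpression strains.

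**Figure D5:**
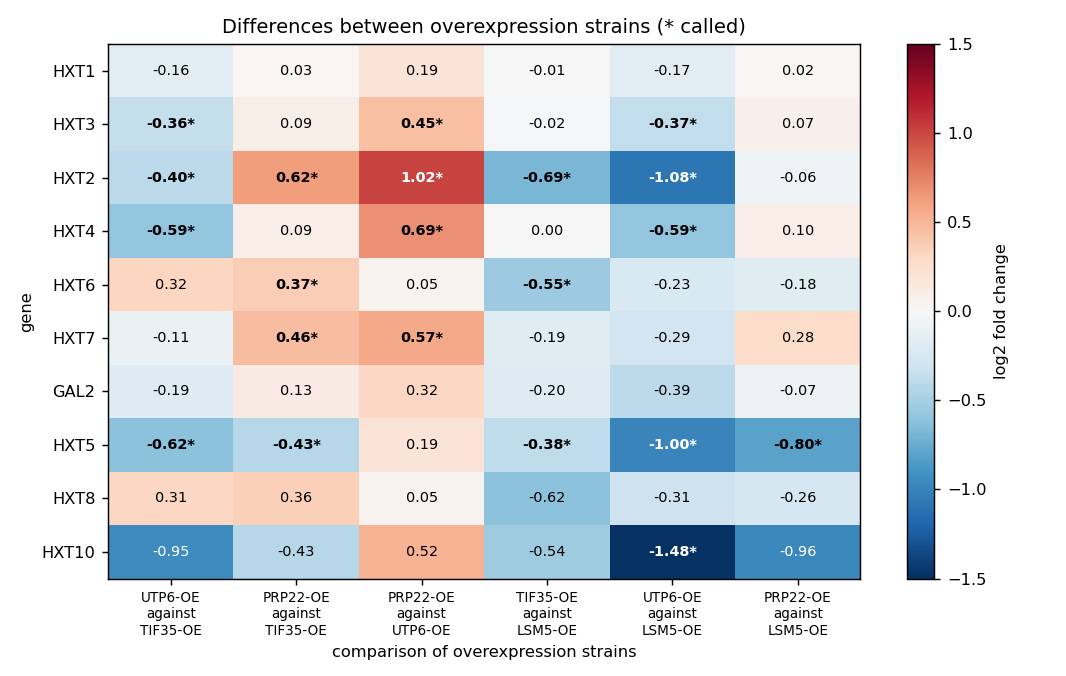
Log2 fold change of the 10 genes in the 6 contrasts between overexpression strains, in blue where the strain named first was lower and in red where it was higher, with an asterisk where the adjusted p was at most 0.05. HXT2 reaches -1.08 in UTP6-OE against LSM5-OE and 1.02 in PRP22-OE against UTP6-OE, and HXT1 carries no asterisk.

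The pathway around the transporters was followed in 7 lists with 52 genes, of which 48 were tested. The lists were made with earlier results of these data known. Most genes named from them below were picked for being called the same way in at least 3 strains. The others were named after their values were seen. The adjusted p-values of all these genes against WT are thus a description and no independent test. In turn, 9, 8, 7 and 10 genes were called higher than WT and 0, 16, 12 and 4 lower, to be read beside the shares of all features given above. The split depended on scaling, since rescaled FPKM gave 10, 11, 9 and 14 higher and 0, 8, 11 and 3 lower. The median log2 fold change over the lists was 0.04, -0.13, -0.16 and -0.01, beside -0.01, -0.10, -0.07 and -0.05 over all features. Of 49 calls against WT for the genes named from these lists (other than SNF1, SAK1 and MIG1) and beside the transporters, 21 were also made in the 7 libraries with longer fragments, and all 49 kept their direction there.

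Of 4 genes of hexose phosphorylation, the step after uptake, 3 were called higher than WT in all 4 strains. Of all features, 4.7%, 9.62%, 9.95% and 7.09% were higher in the 4 strains in turn. HXK1, the hexokinase that is repressed in glucose, rose from 316 FPKM ± 2.40 in WT to 711 ± 7.01 in LSM5-OE, 675 ± 22.5 in TIF35-OE, 685 ± 2.94 in UTP6-OE and 813 ± 61.3 in PRP22-OE, log2 fold changes of 1.17, 1.10, 1.12 and 1.36 (SE 0.06, adjusted p from 1.37e-05 to 6.49e-05, called in all 19 alternatives). GLK1, which encodes glucokinase, rose from 768 FPKM to between 1022 and 1152 FPKM, and EMI2, a relative of GLK1, from 194 FPKM to between 250.2 and 313 FPKM, with adjusted p from 0.00118 to 0.0136 for the pair. HXK2, the main hexokinase of cells in glucose, moved the other way in UTP6-OE, from 1689 FPKM ± 47.4 to 1144 ± 5.79 (log2 fold change -0.56, adjusted p = 0.00025), and in TIF35-OE, to 1484 ± 42.0 (-0.19, adjusted p = 0.0347). The last of these held in 9 of 19 alternatives and ended without any 1 culture of WT, TIF35-OE or UTP6-OE (adjusted p from 0.0535 to 0.186), and after rescaling, which left a log2 fold change of -0.10 (0.126). Single calls were also lost for EMI2 in LSM5-OE without WT culture 1 (0.0597) and in UTP6-OE without any 1 WT or UTP6-OE culture (0.0537 to 0.0773), and for GLK1 in LSM5-OE without any 1 WT culture or LSM5-OE culture 1 (0.0559 to 0.0837), in UTP6-OE without WT culture 2 (0.0538) and in PRP22-OE without any 1 WT culture or PRP22-OE culture 1 (0.0533 to 0.0677).

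On the glucose sensing branch of 10 genes, 1 was called higher in each strain, and this was MTH1, the corepressor of Rgt1. MTH1 rose from 73.6 FPKM ± 5.31 in WT to 154 ± 4.30 in LSM5-OE, 136 ± 6.72 in TIF35-OE, 104 ± 10.4 in UTP6-OE and 173 ± 9.35 in PRP22-OE (log2 fold changes 1.06, 0.88, 0.49 and 1.23, adjusted p from 6.73e-05 to 0.00451), and its calls held in 18 or 19 of 19 alternatives. Called lower were 4 genes in TIF35-OE, or 2 after rescaling, and 2 in UTP6-OE, and none in LSM5-OE or PRP22-OE. Of all features, 20.7% and 19.1% were lower in TIF35-OE and UTP6-OE before rescaling, and 4.7% to 9.95% were higher across the strains. RGT1 itself was lower in TIF35-OE and UTP6-OE, at 14.0 ± 0.66 and 14.5 ± 0.62 FPKM against 18.6 ± 0.76 in WT (adjusted p = 0.0162 and 0.0244), as was the sensor gene RGT2, at 19.0 and 18.1 FPKM against 24.0 (adjusted p = 0.00806 and 0.00302). The calls for RGT1 ended without any 1 WT culture (0.0604 to 0.133), in TIF35-OE also without TIF35-OE culture 1 (0.0934) and in UTP6-OE without either UTP6-OE culture (0.0616 and 0.116), and that for RGT2 in TIF35-OE without WT culture 2 (0.0589). RGT1, RGT2 and HXK2 were named after their values were seen.

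On the Snf1 and Mig1 branch of 13 genes, 3, 3, 3 and 4 were called higher in the 4 strains in turn, and 0, 1, 1 and 0 lower, which rescaling turned into 4, 5, 5 and 8 higher and 0, 0, 1 and 0 lower. Before rescaling, 4.7%, 9.62%, 9.95% and 7.09% of all features were higher and 2.95%, 20.7%, 19.1% and 12.2% lower. SIP2 and GAL83, which encode beta subunits of the Snf1 kinase, rose in all 4 strains. SIP2 went from 41.3 FPKM in WT to between 50.4 and 55.9 FPKM (adjusted p from 0.00105 to 0.00432), and GAL83 from 115 FPKM to between 132 and 136 FPKM (adjusted p from 0.00719 to 0.0405). TOS3, a kinase that activates Snf1, rose from 42.6 FPKM to 66.1 FPKM in TIF35-OE, 61.8 FPKM in UTP6-OE and 54.3 FPKM in PRP22-OE (adjusted p = 0.00123, 0.00195 and 0.018). The remaining calls on this branch were for genes named after their values were seen. SNF1 was lower in UTP6-OE by -0.23 (adjusted p = 0.0124) and SAK1 lower in TIF35-OE by -0.27 (0.0276). The repressor gene MIG1 was higher in LSM5-OE by 0.33 (0.0182) and in PRP22-OE by 0.48 (0.00151). How these calls fared in the alternatives is not given here. The calls for SIP2 held in 17 or 18 of 19 alternatives. Those for GAL83 held in 5, 16, 15 and 13, with adjusted p from 0.0517 to 0.206 in LSM5-OE without any 1 library, 0.0523 in TIF35-OE without WT culture 2 or TIF35-OE culture 1, 0.0665 to 0.0796 in UTP6-OE without a WT culture or UTP6-OE culture 1, and 0.0794 to 0.121 in PRP22-OE without a WT or PRP22-OE culture. That for TOS3 in PRP22-OE ended without a WT culture or PRP22-OE culture 1 (0.0766 to 0.0967).

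Of 6 genes that act in the turnover of transporters at the membrane, 0, 3, 5 and 2 were called lower in the 4 strains in turn and 0 higher, where 2.95%, 20.7%, 19.1% and 12.2% of all features were lower. Among them BUL1, an adaptor of the ubiquitin ligase Rsp5, fell from 39.8 FPKM ± 2.46 to 30.3 ± 1.22 in TIF35-OE, 25.5 ± 0.65 in UTP6-OE and 33.4 ± 0.70 in PRP22-OE (adjusted p = 0.00646, 0.000494 and 0.0419), of which the first ended without WT culture 2 (0.0505) and the last without any 1 culture of WT, TIF35-OE, UTP6-OE or PRP22-OE (0.0587 to 0.234). Of 6 galactose genes, 0, 4, 2 and 0 were called lower, and after rescaling 0, 1, 2 and 0. The shares of all features lower, just given for turnover, also stand beside these counts before rescaling and those of the next list. Of 5 further members of the hexose transporter family that were tested, 0, 3, 1 and 2 were called lower, and HXT9 fell from 7.18 FPKM ± 0.46 to 3.82 ± 0.36 in TIF35-OE, 3.90 ± 0.83 in UTP6-OE and 4.08 ± 0.49 in PRP22-OE (adjusted p = 0.0265, 0.0274 and 0.0494). Each of these calls for HXT9 ended without a WT culture (0.088 to 0.207), and the first also without a TIF35-OE culture (0.0777 and 0.109), the next without UTP6-OE culture 2 (0.124) and the last without a TIF35-OE or PRP22-OE culture (0.0694 to 0.188) and after rescaling (0.0617). Among 4 other sugar carriers, 2, 1, 0 and 2 were called higher, where 4.7%, 9.62%, 9.95% and 7.09% of all features were higher. One of them, the maltose permease gene MAL31, rose from 31.8 FPKM to 57.6 in LSM5-OE, 40.9 FPKM in TIF35-OE and 58.5 FPKM in PRP22-OE (adjusted p from 6.15e-05 to 0.00459, held in 18 or 19 of 19 alternatives).

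Features beside the transporters did not all follow them. On chromosome VIII, HXT4 was higher, HXT1 near WT and HXT5 lower within the same group of neighbours. AHT1, between HXT4 and HXT1, was called in no strain, with log2 fold changes of 0.005, -1.10, -0.45 and -0.50 in turn. PAL2 (YHR097C), the next gene beyond HXT5, was lower as HXT5 was, with log2 fold changes of -0.08, -0.50, -1.13 and -0.69 in the 4 strains in turn (adjusted p = 0.475, 0.000779, 9.87e-06 and 0.000143), the last 3 in all 19 alternatives. MSR1, on the other side of HXT4, was lower in TIF35-OE and UTP6-OE by -0.39 and -0.41 (adjusted p = 0.0168 and 0.0127), and these calls ended without WT culture 1 (0.0975 and 0.0799), the former also without WT culture 2 (0.0539) or a TIF35-OE culture (0.0902 and 0.0544) and the latter without UTP6-OE culture 2 (0.0728). On chromosome IV, YDR341C beside HXT7 and YDR344C between HXT6 and HXT3 were called in no strain, and SVF1, beyond HXT3, was higher by 0.15 in UTP6-OE and 0.29 in PRP22-OE (adjusted p = 0.0425 and 0.00431), the former of which ended without any 1 library other than those of LSM5-OE (0.0621 to 0.184).

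The features most like a transporter across the 10 libraries were taken by Pearson's r of log2 values, as a description over libraries that share strains. HXT1 was most like HXT3 (r = 0.959), followed by IZH2 (0.905) and EEB1 (0.903). For HXT2 these were COS111 (0.986), SIA1 (0.970) and SNF1 (0.967), for HXT4 they were SHM2 (0.996), ADE2 (0.989) and YLR177W (0.987), and for HXT7 they were LSC2 (0.990), GSY1 (0.983) and ADE5,7 (0.983). HXT5 was most like RCH1 (0.987), APJ1 (0.985) and GSC2 (0.982). Within the family, r was 0.968 for HXT4 with HXT7, 0.926 for HXT6 with HXT7 and 0.969 for HXT5 with HXT10, whereas HXT2 was closest to HXT1 (0.736).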

How the data were processed

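RNA was sequenced from 2 cultures of each of 5 strains, assigned from the sample labels. Per the paper's methods, 150 bp paired-end reads were mapped to S288c with HISAT2, counted with featureCounts, filtered with edgeR and tested with DESeq2, while the submitters' processing notes list STAR, RSEM, edgeR and limma. Which of these gave the FPKM deposited by the authors is not given in the sources used here. A second table, named for raw reads, equalled the normalized one in all 58240 cells, so no count test was used. Counting by strand was not stated.

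The members and lists were chosen with earlier results of these data known. Gene names came from the deposited table, and 5775 of 5824 features matched RefSeq R64. Log2(FPKM + 0.5) of the 5768 features whose mean reached 1 FPKM was fitted for all 10 libraries with limma 3.58.1 in R 4.3.3 (lmFit, contrasts.fit, eBayes with a trend), two-sided, with Benjamini-Hochberg adjustment within each contrast. Named besides the members were the 3 features most like 5 of them, up to 3 genes per list called the same way in at least 3 strains, and the neighbouring features. RGT1, RGT2, HXK2, SAK1 and MIG1, and SNF1 as a list gene, were named after their values were seen. Alternatives used a pseudocount of 0.1 or 1, a mean filter of 5 FPKM or none, rescaling by the median of ratios, only the strains compared, a replicate block, no trend, the 7 libraries with longer fragments, and each culture left out, to which HXT6 and HXT7 summed to 1 feature was added after seeing the data. Depth was estimated from FPKM steps, with 70.6% to 95.4% of 39 to 52 values per library within 0.15 of a whole number of fragments. Pairwise alignment used Biopython 1.88. Scripts were tested on simulated data. LEU2, MET17, MFA1, MFALPHA1, HXT12 and HXT16 were not analysed here.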

Additional observations from a re-analysis of the deposited data

Results flagged for a closer look

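For a pair of genes, overexpression strains lay on opposite sides of both WT cultures and also differed from each other in the test between strains (limma, 2 cultures per strain). For HXT2, UTP6-OE and TIF35-OE lay below WT and LSM5-OE and PRP22-OE above it. The log2 fold change was -1.08 for UTP6-OE against LSM5-OE, 1.02 for PRP22-OE against UTP6-OE, -0.69 for TIF35-OE against LSM5-OE and 0.62 for PRP22-OE against TIF35-OE. Of 19 alternatives, 19, 18, 17 and 17 kept these calls for HXT2, in that order. For HXT3, UTP6-OE lay below WT, by a log2 fold change of -0.06 that became 0.01 after rescaling, and the other strains above it. The log2 fold change was -0.36 for UTP6-OE against TIF35-OE, 0.45 for PRP22-OE against UTP6-OE and -0.37 for UTP6-OE against LSM5-OE. These calls for HXT3 were less stable, kept in 7, 14 and 14 of 19 alternatives in that order.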

How the results depend on the processing

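Of 1128 values of single members in contrasts between overexpression strains, 1027 kept their side of the threshold under the alternatives. A call was lost by 96 and gained by 5, and none reversed a call. Values that were not called could change direction among the 1027. For example, HXT1 in PRP22-OE against TIF35-OE ran from -0.02 to 0.07 on the log2 scale. Of 752 values against WT, 8 moved by more than 1 SD, and 27 were no longer past and 12 newly past the threshold. Counts of members called were 3, 6, 7 and 6 against WT for the 4 strains in the order of the report, and counts of pathway genes 9, 24, 19 and 14. Rescaling by the median of ratios gave 5 members in LSM5-OE. Fitting only the libraries of the 2 strains compared gave 4 pathway genes in LSM5-OE against WT. The same setting gave 1 member in UTP6-OE against TIF35-OE and 1 in PRP22-OE against UTP6-OE. It gave 0 in PRP22-OE against TIF35-OE, TIF35-OE against LSM5-OE and PRP22-OE against LSM5-OE by limma, where 4, 5 and 2 members had an unadjusted p of at most 0.05. Without a mean-variance trend, 2 members were called in PRP22-OE against TIF35-OE and 2 in PRP22-OE against LSM5-OE. The 7 libraries with longer fragments, a fit with 2 residual degrees of freedom in which the lone cultures are assumed to vary like the others, gave 4, 4, 6 and 5 pathway genes in the 4 strains and 3 members in TIF35-OE against WT. They gave 3 members in UTP6-OE against LSM5-OE and 0 in the other 5 contrasts between overexpression strains, where 5, 3, 6, 2 and 3 had an unadjusted p of at most 0.05 in UTP6-OE against TIF35-OE, PRP22-OE against TIF35-OE, PRP22-OE against UTP6-OE, TIF35-OE against LSM5-OE and PRP22-OE against LSM5-OE. With 1 culture left out, members called ranged from 1 to 4 in UTP6-OE against TIF35-OE, in PRP22-OE against TIF35-OE and in PRP22-OE against UTP6-OE, from 1 to 3 in TIF35-OE against LSM5-OE and from 3 to 6 in UTP6-OE against LSM5-OE, and pathway genes from 4 to 9, 10 to 27, 11 to 22 and 8 to 17 in the 4 strains. The cause of these changes was not tested. The number of all features called changed between these settings too, and is not set beside each count. No share of all features is given for the unadjusted p, so these counts are not read as results about the members.

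With the culture number as a replicate block, 2 members were called in UTP6-OE against TIF35-OE and 2 in PRP22-OE against TIF35-OE. The labels tie no shared batch to the numbers, and same-numbered cultures deviated together with r from -0.36 to 0.43 over the 10 pairs of strains, so the block was not taken as a pairing.

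The high affinity share without HXT6 and HXT7 was 32.1%, 37.4%, 30.6%, 28.3% and 36.4% in WT and the 4 strains in turn, and with HXT4 left out of the class 35.3%, 40.8%, 33.6%, 36.0% and 41.1%. Depth limits GAL2, HXT8 and HXT10, which rest on an estimated 17 to 211 fragments per library.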
